A study of Mus musculus with 12 samples.

Results

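Enriched housing was compared with standard housing in the hippocampus of adult mice that had received saline, and no ethanol, as pups. The comparison uses 6 of the 12 libraries of the series, 3 from enriched saline and 3 from standard saline mice, chosen by their sample labels alone. Of the 36119 genes in the deposited table, all 14947 with a mean of at least 1 TPM, a measure of transcript abundance per length and library, over the 12 libraries were tested. All mice were C57BL/6 at postnatal day 70. Saline mice had 2 injections of 0.15 M saline under the skin, 2 hours apart, on each of days 6 and 7. Ethanol mice had 2.5 g/kg ethanol in each injection on the same schedule, which the labels name prenatal although it follows birth. Enriched mice were moved at day 21 to large cages of 2 to 6 littermates of the same sex, with running wheels, ladders, hoops, toys, hidden food and more bedding and nest material, while standard mice lived in ordinary cages from the same day. The enriched condition therefore joins exercise, objects and cage space, and their parts cannot be told apart. No number of mice per standard cage was recorded here, so whether company differed is not known. Neither sex, litter nor hour of killing is stated in the labels, and nothing says that the mice of a group had different parents, so p-values measure only the spread between these libraries.

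The hippocampus encodes places and episodes and is 1 of the few regions of the adult rodent brain that goes on making neurons, in the dentate gyrus. In rodents, enriched cages and running wheels are known for more surviving newborn granule cells, richer dendrites and higher levels of brain-derived neurotrophic factor. Genes set by neuronal activity, growth factors, clock genes and the markers of hippocampal and neighbouring cell types were therefore described as lists.

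The labels name the tissue as hippocampus. All 15 dentate granule cell markers and 17 of 18 markers of CA1 and CA3 pyramidal cells were tested, and no dentate marker was listed at 0 in any library. This cannot identify the tissue, since all 17 choroid plexus markers and all 13 neocortex and subiculum markers were tested too. Spearman correlations among the 6 saline libraries ran from 0.977 to 0.987. A pair of saline libraries stood apart by their cell type markers. Enriched saline replicate 2 carried choroid plexus RNA, with the summed level of 17 plexus markers at 9358 TPM against 204 to 382 TPM in the other 5 saline libraries. In standard saline replicate 2 the dentate markers averaged 0.52 above their mean over all libraries on the log2 scale, more than in any other library. It also had the lowest means of the myelin (-0.43), meningeal fibroblast (-1.06), neocortex and subiculum (-0.63) and striatum (-0.44) markers. In whole tissue, fewer cells of a type and less RNA per cell cannot be told apart. The heat map of marker lists shows these libraries beside the others, and the lists that moved with them are also given without them.

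**Figure D1:**
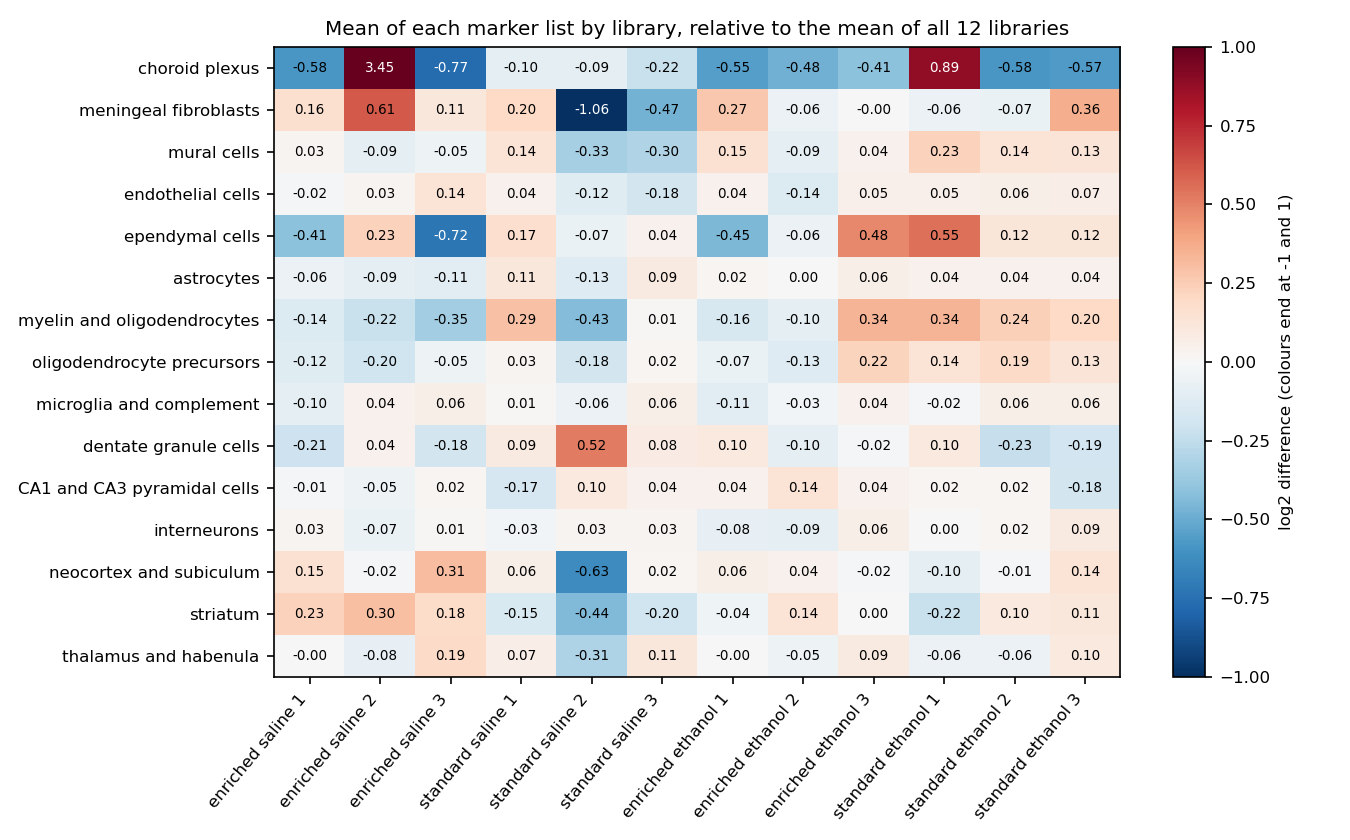
Heat map of 15 marker lists (rows) in 12 libraries (columns). Each cell gives the mean log2(TPM + 0.5) of the list in a library minus its mean over all libraries, and colours end at -1 and 1. Enriched saline replicate 2 stands out at 3.45 for choroid plexus markers, and standard saline replicate 2 at 0.52 for dentate granule cells and -1.06 for meningeal fibroblasts.

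Few genes passed the test across all genes. limma on log2(TPM + 0.5) called 4 of 14947 genes (0.0268%) after Benjamini-Hochberg adjustment (p under 0.05), with 2 higher (0.0134%) and 2 lower (0.0134%) in enriched saline than in standard saline mice. At an unadjusted p under 0.05 there were 811 higher (5.43%) and 687 lower (4.60%). The 3 enriched libraries lay wholly above the 3 standard ones for 1106 genes (7.40%) and wholly below them for 982 (6.57%). The median log2 fold change of all genes tested was 0.00. Those shares are the background for every list below.

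Of the called genes 3 were short loci listed at 0 in a whole group, where a value of 0 can be a failed estimate. Gm44922, an unprocessed pseudogene (GRCm38 chromosome 11, 73413319 to 73413408, minus strand), was listed at 0 in every enriched saline library and at 8.47, 8.41 and 8.35 TPM in the standard saline ones (limma adjusted p = 5.67e-05). It was listed at 0 in all 6 ethanol libraries as well. Gm11027, a predicted protein-coding gene (chromosome 12, 116275386 to 116275612, plus strand), was listed at 0 in every enriched saline library, against 13.1, 14.7 and 8.85 TPM in standard saline (limma adjusted p = 0.0182). Each of the 6 ethanol libraries had Gm11027 above 0, between 3.03 and 22.3 TPM. Gm12854, a processed pseudogene (chromosome 4, 116067268 to 116067564, plus strand), was at 1.58, 1.73 and 4.16 TPM in enriched saline and listed at 0 in all standard saline libraries (limma adjusted p = 0.0463). Gm12854 had the same pattern in ethanol mice, with 1.34, 1.79 and 1.41 TPM in enriched cages and 0 in all 3 standard libraries (limma unadjusted p = 9.07e-05, adjusted p = 0.595). Reads of pseudogenes are shared by estimate with near-identical copies, so these values are uncertain.

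The 12 smallest p-values of named protein-coding genes on the higher side included genes that did not pass the test. Rspo2, which encodes R-spondin 2, an enhancer of Wnt signalling, was at 22.5, 21 and 21.2 TPM in enriched saline, against 13.2, 12.2 and 15.2 TPM in standard saline mice (limma log2 fold change 0.66, SE 0.10; adjusted p = 0.0744). Cyb561, a cytochrome b561 of secretory vesicle membranes that passes electrons from ascorbate, was at 49.2, 57.8 and 49.6 TPM in enriched saline, against 37.3, 33.7 and 35.6 TPM in standard saline mice (0.55, SE 0.09; limma adjusted p = 0.0775). Gap43, the growth cone protein of extending axons, was at 212, 198 and 195 TPM in enriched saline, against 145, 138 and 128 TPM in standard saline mice (0.55, SE 0.09; limma adjusted p = 0.111). In each of these genes the lowest enriched library lay well above the highest standard one. The neuropeptide neurotensin (Nts) was at 18.1, 13.4 and 14.9 TPM in enriched saline, against 9.45, 8.26 and 9.33 TPM in standard saline mice (0.74, SE 0.13; limma adjusted p = 0.111). Vxn, or vexin, which promotes neuronal differentiation in frog embryos, was at 240, 220 and 235 TPM in enriched saline, against 180, 180 and 167 TPM in standard saline mice (0.40; limma adjusted p = 0.137).

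Further genes among these 12 were Arntl, described with the clock, and 5 others. Sgcd, the delta-sarcoglycan of the dystrophin complex, averaged 10.1 TPM in enriched and 5.87 TPM in standard saline mice. The somatostatin receptor Sstr1 was at 15.2, 22.4 and 16.9 TPM in enriched saline, against 11, 10.4 and 11.2 TPM in standard saline mice. Igsf21, an adhesion protein of inhibitory synapses, was at 33.1, 30.8 and 39.9 TPM in enriched saline, against 22.8, 18.3 and 25.0 TPM in standard saline mice. Tmem130, a membrane protein, and Fbxw7, the substrate receptor of a ubiquitin ligase, had log2 fold changes of 0.30 and 0.37. None of these 5 passed. All 12 genes had groups that did not overlap, which their choice by p largely fixes.

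On the lower side none of the genes with the 12 smallest p-values was called. Rps27rt, a retrogene copy of a ribosomal protein gene, was listed at 0 in each enriched saline library, against 19.0, 2.31 and 11.3 TPM in standard saline. Map7, a microtubule-associated protein that recruits kinesin-1, was at 60.5, 62.7 and 63.2 TPM in enriched saline, against 84.3, 73.5 and 84.1 TPM in standard saline mice (limma log2 fold change -0.37, SE 0.07; adjusted p = 0.137). Gfap, the intermediate filament of astrocytes, was at 169, 202 and 166 TPM in enriched saline, against 260, 220 and 267 TPM in standard saline mice (-0.48, SE 0.09; limma adjusted p = 0.177). The highest enriched library stayed below the lowest standard one for both genes. Rbm3, an RNA-binding protein induced by mild cooling, was at 170, 172 and 200 TPM in enriched saline, against 240, 258 and 237 TPM in standard saline mice (-0.44, SE 0.09; limma adjusted p = 0.222). Its relative Cirbp was at 97.3, 93.6 and 86.0 TPM in enriched saline, against 100, 95.0 and 90.7 TPM in standard saline, so the groups overlapped. Abl1, a tyrosine kinase of the cytoskeleton, was nearly constant within each saline group, with 21.1, 21 and 21.1 TPM in enriched saline and 27.7, 27.9 and 27.7 TPM in standard saline mice (-0.39, SE 0.09; limma adjusted p = 0.222). In standard ethanol mice Abl1 was at 28.9, 23.8 and 23.0 TPM, and that spread enters the SE.

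The others on that side were the clock genes Dbp and Ciart, described with the clock, and 5 genes of mixed function. Ppp1r16b, a regulatory subunit of protein phosphatase 1, was at 58.0, 58.5 and 62.7 TPM in enriched saline, against 77.5, 75.6 and 76.1 TPM in standard saline mice. Ptch1, the receptor of Hedgehog ligands, was at 17.4, 18.5 and 17.5 TPM in enriched saline, against 22.1, 21.4 and 25.6 TPM in standard saline mice. Ermp1, a metallopeptidase of the endoplasmic reticulum, Tmtc3, a mannosyltransferase, and the histone gene Hist1h2bj had log2 fold changes of -0.31, -0.60 and -0.59. In these 5 genes, as in all 12 of this side, each enriched library lay below each standard one, which their choice by p largely fixes. Over all genes tested this held for 6.57%.

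**Figure D2:**
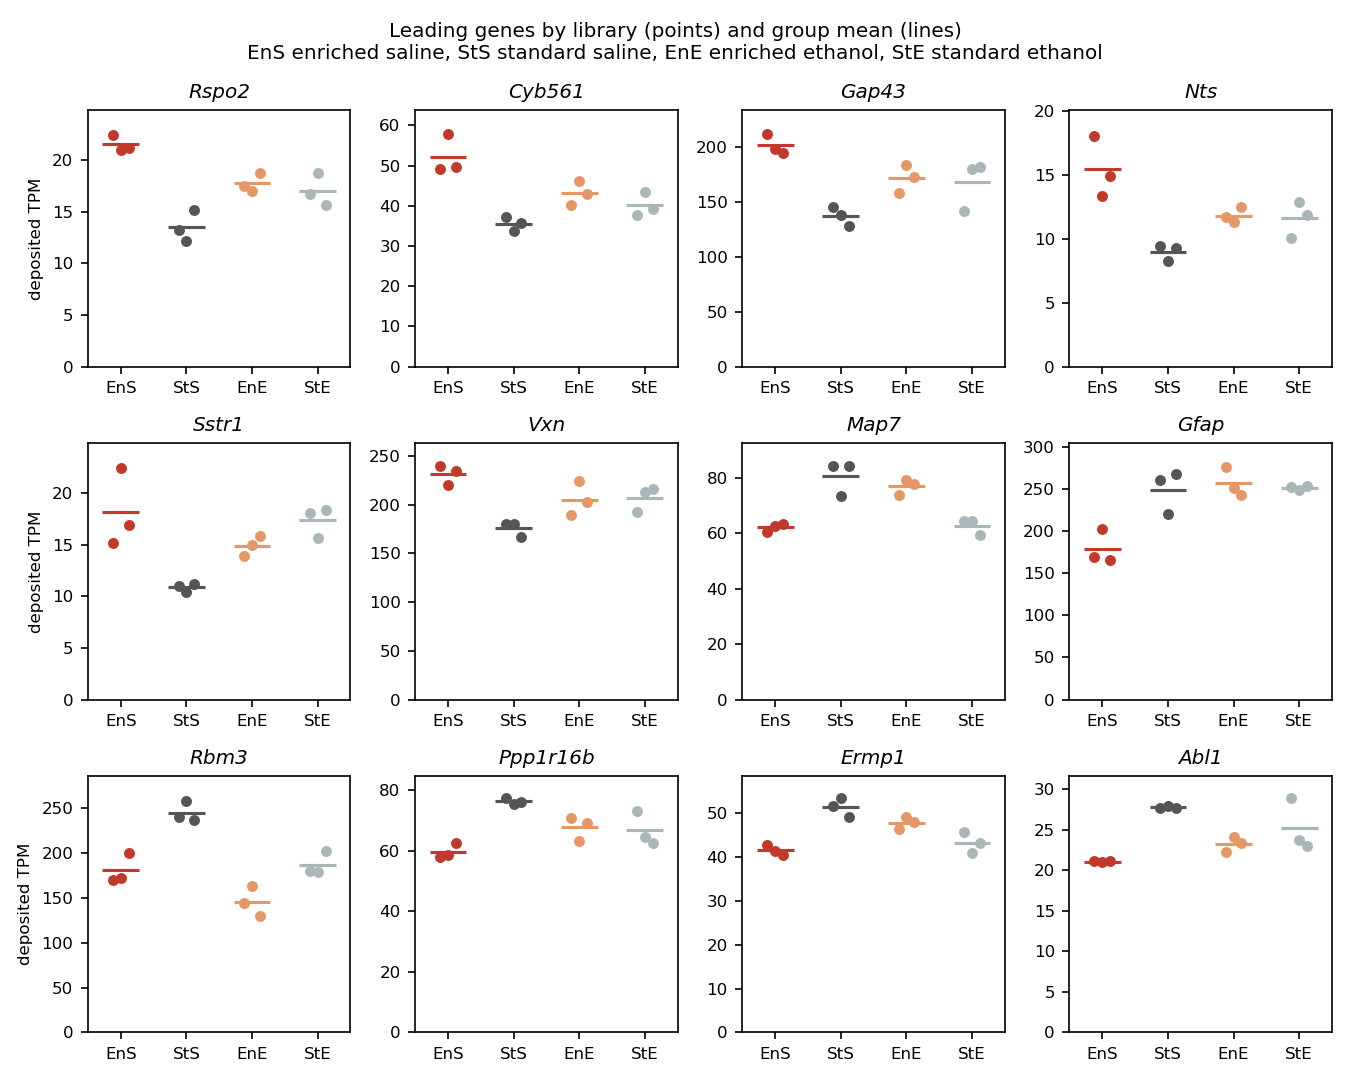
TPM of 12 genes from the smallest p-values in each library (points) with the group mean (line), for enriched saline, standard saline, enriched ethanol and standard ethanol, each with 3 libraries. Axes start at 0. Nts lies between 13.4 and 18.1 TPM in enriched saline and between 8.26 and 9.45 TPM in standard saline, and Gfap between 166 and 202 TPM in enriched saline and between 220 and 267 TPM in standard saline.

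Of all lists, the circadian clock had the largest share of members at an unadjusted p under 0.05. The clock is a feedback loop in which BMAL1 (Arntl) with CLOCK or NPAS2 drives the Per, Cry, Nr1d1 and Dbp genes from E-boxes, the PER, CRY and CHRONO (Ciart) proteins restrain that drive, and NR1D1 and NR1D2 repress Arntl through ROR elements. These transcripts swing over the day in most tissues, the hippocampus included. The labels do not state the hour of killing, so the clock genes cannot be set against time of day. Members of the loop also move together and are not separate results. The libraries of enriched saline mice lay above those of standard saline mice for Arntl and Npas2, on the activator side, and below them for several repressor and output genes. Of 22 tested members 2 were higher and 10 lower at that level (54.5%, against 10.0% of all genes), but 0 were called by limma after adjustment. All 12 had groups that did not overlap, which their choice by p largely fixes. Over all genes tested the groups did not overlap for 14.0%. The median of the list was -0.23, against 0.00 for all genes tested.

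Start regions of the clock genes come from RefSeq (GRCm38.p6), from 250 bases before to 50 after each start, and were found for 19 of the 22. They are printed for the members with the smallest p that had a window, because the letters that clock proteins read lie in some of them and not in others. The motifs searched on both strands were the E-box CACGTG, its variant CACGTT, the D-box TTATGTAA and the ROR element TAGGTCA, and capitals mark each match. No match overlaps another in the windows shown.
Dbp: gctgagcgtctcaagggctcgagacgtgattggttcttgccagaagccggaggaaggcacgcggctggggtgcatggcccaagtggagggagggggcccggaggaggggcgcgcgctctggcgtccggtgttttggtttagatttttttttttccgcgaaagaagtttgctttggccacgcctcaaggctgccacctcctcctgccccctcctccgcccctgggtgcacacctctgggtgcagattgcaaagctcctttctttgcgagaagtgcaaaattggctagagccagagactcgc
Arntl: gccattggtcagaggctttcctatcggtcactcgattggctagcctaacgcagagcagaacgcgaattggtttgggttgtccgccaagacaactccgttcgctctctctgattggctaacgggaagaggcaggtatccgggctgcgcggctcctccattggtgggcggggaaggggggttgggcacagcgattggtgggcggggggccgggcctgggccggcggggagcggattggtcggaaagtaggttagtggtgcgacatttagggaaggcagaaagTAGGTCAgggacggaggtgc
Ciart: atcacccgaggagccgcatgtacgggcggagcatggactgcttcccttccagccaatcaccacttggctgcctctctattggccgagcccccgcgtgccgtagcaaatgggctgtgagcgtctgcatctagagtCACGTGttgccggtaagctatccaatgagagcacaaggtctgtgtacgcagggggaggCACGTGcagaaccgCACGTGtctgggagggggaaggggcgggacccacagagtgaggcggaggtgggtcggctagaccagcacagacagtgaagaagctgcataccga
Per3: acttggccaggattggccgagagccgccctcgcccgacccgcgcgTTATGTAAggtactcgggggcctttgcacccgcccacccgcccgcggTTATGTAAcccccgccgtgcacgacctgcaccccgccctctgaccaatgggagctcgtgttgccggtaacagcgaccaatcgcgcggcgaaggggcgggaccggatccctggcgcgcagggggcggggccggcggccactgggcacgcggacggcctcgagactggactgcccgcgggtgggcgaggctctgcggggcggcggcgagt
Nr1d1: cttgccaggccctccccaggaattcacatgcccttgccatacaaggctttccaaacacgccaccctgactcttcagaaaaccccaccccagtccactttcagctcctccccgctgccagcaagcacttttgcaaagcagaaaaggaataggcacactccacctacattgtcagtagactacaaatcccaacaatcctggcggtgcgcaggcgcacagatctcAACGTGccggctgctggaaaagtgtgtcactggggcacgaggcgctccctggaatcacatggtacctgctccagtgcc
The windows lie at chr7:45704997-45705296 (Dbp, plus strand), chr7:113207261-113207560 (Arntl, plus strand, the second of its 2 starts), chr3:95882179-95882478 (Ciart, minus strand), chr4:151044616-151044915 (Per3, minus strand) and chr11:98775328-98775627 (Nr1d1, minus strand). Ciart holds 3 E-boxes, Per3 holds 2 D-boxes, and Arntl holds a ROR element 30 bases after its second start. Nr1d1 holds the variant E-box on the opposite strand, 28 bases before its start. The Dbp window holds none of these letters, and neither does the window of the first Arntl start, which is not printed. The E-box was in 5 of the 19 clock genes (26.3%), against 8.09% of 27025 genes with a window, and its variant in 4 (21.1%), against 5.44%. The D-box was in 1 (5.26%, against 1.11%) and the ROR element in 2 (10.5%, against 2.97%). A match describes the letters of a window and says nothing of binding in these mice.

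Arntl, which encodes the activator BMAL1, carries the ROR element at its second start only. Its level was 39.7, 31.1 and 31.0 TPM in enriched saline, against 20.5, 22.7 and 19.0 TPM in standard saline mice (limma log2 fold change 0.69, SE 0.12; adjusted p = 0.108). Npas2, a partner of BMAL1, was at 17.3, 19.0 and 18.1 TPM in enriched saline, against 15.3, 9.29 and 16.5 TPM in standard saline mice (0.43; limma adjusted p = 0.473). Its lowest value was in standard saline replicate 2, without which the log2 fold change was 0.18. The other partner, Clock, did not pass either level of the test. Dbp, an output transcription factor that binds D-boxes, was at 47.1, 43.5 and 53.8 TPM in enriched saline, against 82.5, 68.0 and 81.2 TPM in standard saline mice (-0.68, SE 0.11; limma adjusted p = 0.0912). Its relative Tef, of the same family, was at 160, 155 and 206 TPM in enriched saline, against 222, 215 and 221 TPM in standard saline mice (-0.35; limma adjusted p = 0.405). Every enriched library was above every standard library for Arntl and Npas2, and below them for Dbp and Tef.

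The repressors of the loop had negative fold changes, though the groups overlapped for Per1 and Cry1. Ciart, whose window holds the E-boxes, was at 10.3, 8.73 and 11.7 TPM in enriched saline, against 18.7, 17.7 and 17.9 TPM in standard saline mice (limma log2 fold change -0.80, SE 0.17; adjusted p = 0.222). Per3 was at 6.75, 8.43 and 9.26 TPM in enriched saline, against 13.4, 12 and 13.2 TPM in standard saline mice (-0.64, SE 0.16; limma adjusted p = 0.283). Per2 was at 4.88, 6.18 and 9.20 TPM in enriched saline, against 9.46, 10.4 and 11.6 TPM in standard saline mice (-0.64, SE 0.23; limma adjusted p = 0.419). Enriched saline replicate 3 was the library nearest to the standard ones for all 3 of these genes. Nr1d1, the REV-ERB alpha repressor, was at 27.4, 23.0 and 28.7 TPM in enriched saline, against 32.6, 30.0 and 41.9 TPM in standard saline mice (-0.39; limma adjusted p = 0.370). Nr1d2 was at 40.9, 49.7 and 58.3 TPM in enriched saline, against 74.0, 61.2 and 66.0 TPM in standard saline mice (-0.44; limma adjusted p = 0.419). For both REV-ERB genes the enriched libraries lay below every standard one. The helix-loop-helix repressors Bhlhe40 and Bhlhe41 had log2 fold changes of -0.43 and -0.44, and the cryptochrome Cry2 -0.22. The other cryptochrome, Cry1, was at -0.23 (limma unadjusted p = 0.189), and Nfil3, also on the list, was at 0.08. Per1, a partner of Per2 in the loop, overlapped between the groups, with 17, 16.9 and 27.3 TPM in enriched saline, against 27.6, 23.5 and 38.5 TPM in standard saline mice. The 10 members without an unadjusted p under 0.05, Per1 among them, ran from -0.54 to 0.13.

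**Figure D3:**
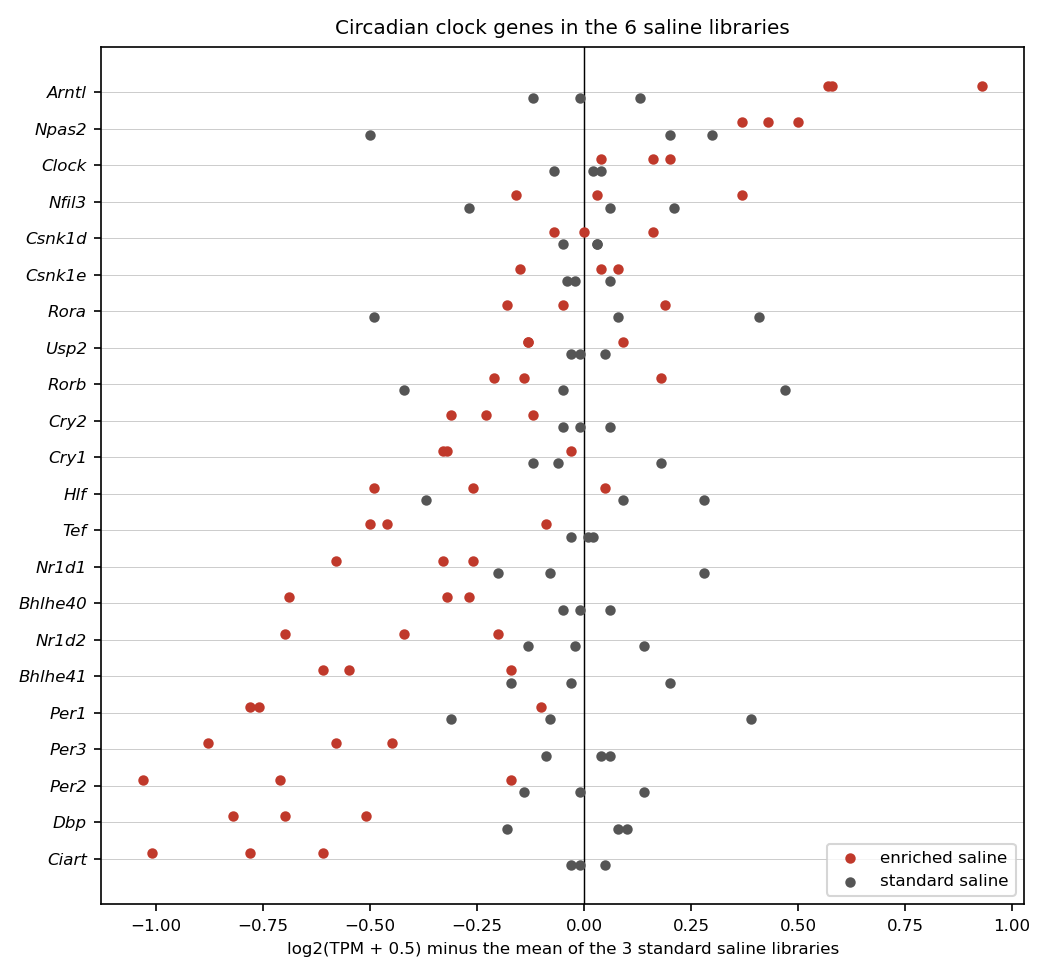
The 22 circadian clock genes (rows) in the 6 saline libraries, as log2(TPM + 0.5) minus the mean of the standard saline libraries, with enriched saline points above standard saline points in each row. Arntl lies to the right, and Ciart, Dbp, Per2 and Per3 to the left, with log2 fold changes of 0.69, -0.80, -0.68, -0.64 and -0.64.

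The clock counts moved with the libraries used. Without standard saline replicate 2 there were 2 higher and 12 lower at an unadjusted p under 0.05, without enriched saline replicate 2 there were 2 and 6, and without enriched saline replicate 1 there were 1 and 5. The list's median stayed between -0.18 and -0.35 when any 1 saline library was left out. Without standard saline replicate 2, Dbp was called (log2 fold change -0.77; limma adjusted p = 0.0341). Under the alternatives tried its limma adjusted p ran up to 0.279.

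In ethanol mice, which share no library with the saline mice, the clock list had a median of -0.01, with 3 members higher and 2 lower at an unadjusted p under 0.05. Some clock genes had the same sign as in saline mice. Dbp was at 52.5, 62.2 and 47.9 TPM in enriched ethanol, against 70.0, 74.5 and 69.7 TPM in standard ethanol mice (log2 fold change -0.40; limma unadjusted p = 0.00320, adjusted p = 0.861). Arntl was at 24.7, 24.9 and 30.6 TPM in enriched ethanol, against 19.6, 20.9 and 21.1 TPM in standard ethanol mice (0.36; limma unadjusted p = 0.00876, adjusted p = 0.861). Nr1d1 was at 31.5, 29.7 and 31.2 TPM in enriched ethanol, against 41.7, 38.5 and 34.9 TPM in standard ethanol mice (-0.31; limma unadjusted p = 0.0275, adjusted p = 0.883). The groups of ethanol mice did not overlap for any of these 3 genes. Of the 10 lower members 7 had a negative fold change in ethanol mice too, 2 of them at an unadjusted p under 0.05, and both higher members had a positive one, against 7576 of all 14947 genes with the same sign in both contrasts. Of these 12, Ciart, Per3 and Bhlhe41 differed between the 2 housing contrasts at an unadjusted p under 0.05 (0.0324, 0.0187 and 0.0294), and 0 of the 22 clock genes did so after adjustment.

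Markers of mature dentate granule cells were lower in enriched saline mice, and they moved with standard saline replicate 2. Of 15 tested markers 8 were lower and 0 higher at an unadjusted p under 0.05 (53.3%), all 15 had negative fold changes, and 0 were called after adjustment. The median was -0.32, against 0.00 for all genes tested and 0.12 for the same markers in ethanol mice. Dsp, the desmosome protein desmoplakin, was at 12.8, 15.9 and 11.5 TPM in enriched saline, against 20.3, 33.7 and 19.7 TPM in standard saline mice (limma log2 fold change -0.82, SE 0.23; adjusted p = 0.314). Prox1, the transcription factor of granule cell identity, was at 20.8, 23.4 and 18.7 TPM in enriched saline, against 23.2, 40.4 and 31.4 TPM in standard saline mice (-0.55; limma adjusted p = 0.447). Il1rap, the accessory protein of the interleukin 1 receptor, was at 33.3, 38.3 and 34.4 TPM in enriched saline, against 43.6, 45.9 and 40.5 TPM in standard saline mice (-0.29; limma adjusted p = 0.282). Standard saline replicate 2 was the highest of the 6 saline libraries for all 3 genes. Without it Dsp was at -0.57 and Prox1 at -0.36, and the median was -0.21, with 2 of the 15 lower at an unadjusted p under 0.05. Markers of CA1 and CA3 pyramidal cells lay on both sides. Of 17 tested 5 were higher and 2 lower at that level (41.2%), with a median of -0.10 and 0 called.

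Genes of newborn neurons lay on both sides. Of 27 adult neurogenesis genes 5 were higher and 3 lower at an unadjusted p under 0.05 (29.6%), with a median of 0.03 and 0 called. Doublecortin (Dcx), the microtubule protein of migrating young neurons, was at 7.53, 6.66 and 7.21 TPM in enriched saline, against 5.46, 4.06 and 6.04 TPM in standard saline mice (limma log2 fold change 0.44, SE 0.14; adjusted p = 0.376). The groups did not overlap for Dcx, whose log2 fold change was 0.29 without standard saline replicate 2. Tubb3, a neuronal tubulin, was at 329, 284 and 300 TPM in enriched saline, against 279, 247 and 255 TPM in standard saline mice. Neurod2, a differentiation factor, lay on the other side, with 47.2, 45.1 and 44.7 TPM in enriched saline, against 47.3, 71.9 and 56.2 TPM in standard saline mice (log2 fold change -0.33, and -0.17 without standard saline replicate 2). Without that library 1 of the 27 genes was higher and 0 were lower at an unadjusted p under 0.05.

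Growth factors and activity genes, groups often studied in enriched rodents, had list medians close to that of all genes. Of 35 neurotrophins, growth factors and receptors 3 were higher and 1 lower at an unadjusted p under 0.05 (11.4%, against 10.0% of all genes), with a median of -0.04 and 0 called. Bdnf was at 31.2, 30.3 and 23.4 TPM in enriched saline, against 23.1, 26.3 and 24.2 TPM in standard saline mice, and the groups overlapped (limma log2 fold change 0.19, SE 0.13; adjusted p = 0.661). Its receptor gene Ntrk2 was at 381, 349 and 331 TPM in enriched saline, against 224, 217 and 241 TPM in standard saline mice (0.63, SE 0.27; limma adjusted p = 0.473). These groups were far apart, but ethanol mice covered both levels without regard to housing, at 236, 234 and 483 TPM in enriched and 358, 480 and 240 TPM in standard cages, and that spread enters the SE. Vgf, a secreted peptide precursor that BDNF induces, was at 151, 129 and 131 TPM in enriched saline, against 105, 112 and 116 TPM in standard saline mice (0.30; limma adjusted p = 0.416). Igf1 and Vegfa had log2 fold changes of 0.16 and -0.06, and the sign of Vegfa turned to 0.04 and 0.08 without enriched saline replicate 1 and standard saline replicate 3.

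Of 30 immediate-early and activity genes 2 were higher and 1 lower at an unadjusted p under 0.05 (10.0%), with a median of 0.04. Nr4a2, an orphan nuclear receptor, was at 78.6, 60.0 and 62.7 TPM in enriched saline, against 44.1, 25.0 and 48.4 TPM in standard saline mice (limma log2 fold change 0.82, SE 0.24; adjusted p = 0.324). Fos was at 36.3, 20.1 and 28.6 TPM in enriched saline, against 34.5, 5.13 and 27.4 TPM in standard saline mice (0.67, SE 0.60; limma adjusted p = 0.738). Standard saline replicate 2 was the lowest saline library for both, and without it Nr4a2 was at 0.53, Fos at -0.15, Nr4a1 at -0.28 instead of 0.16, and Egr1 at -0.34 instead of 0.05. Arc, whose protein acts at active synapses, overlapped between the groups, with 122, 81.8 and 96.0 TPM in enriched saline, against 160, 54.4 and 135 TPM in standard saline mice. Npas4, another activity factor, was at 4.01, 6.85 and 6.85 TPM in enriched saline, against 4.63, 1.77 and 4.51 TPM in standard saline mice.

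Neuropeptide genes leaned to the higher side. Of 19 tested 5 were higher and 0 lower at an unadjusted p under 0.05 (26.3%), 18 had positive fold changes, the median was 0.21 and 0 were called. Beside Nts and Vgf these were Cartpt, Adcyap1 and Vip. Cartpt, the precursor of the CART peptide, was at 5.23, 7.64 and 3.89 TPM in enriched saline, against 2.52, 2.58 and 3.0 TPM in standard saline mice (limma log2 fold change 0.88, SE 0.23; adjusted p = 0.284). Adcyap1, which encodes the peptide PACAP, was at 10.3, 10.0 and 13.8 TPM in enriched saline, against 8.53, 7.78 and 8.19 TPM in standard saline mice (0.44, SE 0.12; limma adjusted p = 0.314). In ethanol mice Adcyap1 lay the other way, with 7.35, 7.17 and 7.09 TPM in enriched cages, against 9.97, 10.3 and 9.47 TPM in standard cages (-0.44), and the difference of the contrasts was 0.88 (limma unadjusted p = 2.83e-04, adjusted p = 0.460). The list's median was 0.07 in ethanol mice, and in saline mice it stayed between 0.18 and 0.29 when any 1 library was left out.

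Myelin genes and astrocyte genes leaned lower. Of 20 myelin and oligodendrocyte markers 5 were lower and 0 higher at an unadjusted p under 0.05 (25.0%), 18 had negative fold changes, and the median was -0.19, against -0.27 in ethanol mice. Mbp, the basic protein of compact myelin, was at 1631, 1399 and 1494 TPM in enriched saline, against 2513, 1466 and 2062 TPM in standard saline mice (log2 fold change -0.39; limma adjusted p = 0.486). Myrf, the transcription factor that drives myelin genes, was at 7.65, 7.56 and 9.55 TPM in enriched saline, against 12.5, 9.80 and 19.2 TPM in standard saline mice (-0.67; limma adjusted p = 0.405). Standard saline replicate 2 lay with the enriched libraries for Mbp but above them for Myrf. Without that library 10 of the 20 were lower at an unadjusted p under 0.05 and the median was -0.38, while the median, without standard saline replicate 1, whose summed myelin level of 6961 TPM was the highest of the 6, was -0.01, and 3 were lower. Ermn, an oligodendrocyte cytoskeletal protein, and Plekhb1 were called without standard saline replicate 2 (log2 fold changes -0.64 and -0.65; limma adjusted p = 0.0300 and 0.00366). Under the alternatives tried their limma adjusted p reached 0.620 and 0.625. Of 16 astrocyte markers Gfap, the glutamate transporter Slc1a2 and the bicarbonate transporter Slc4a4 were lower at an unadjusted p under 0.05, and the list's median was -0.08. Gfap was called without standard saline replicate 2 (-0.56; limma adjusted p = 0.0446), and its log2 fold change stayed between -0.57 and -0.42 when any 1 saline library was left out. Under the alternatives tried its limma adjusted p reached 0.480.

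Marker lists of tissue next to the hippocampus had medians of both signs, and several depended on 1 or 2 libraries. All 14 meningeal fibroblast markers had positive fold changes, with 7 higher at an unadjusted p under 0.05 (50%), a median of 0.79 and 0 called. Their summed level was 212, 305 and 194 TPM in enriched saline, against 200, 119 and 150 TPM in standard saline mice. Slc6a13, a transporter of leptomeningeal cells, was at 18, 17 and 11.1 TPM in enriched saline, against 10.8, 3.0 and 6.45 TPM in standard saline mice (limma log2 fold change 1.26, SE 0.36; adjusted p = 0.316). Without standard saline replicate 2 and enriched saline replicate 2 together, 1 fibroblast marker was higher at that level and the median was 0.31. The choroid plexus list had a median of 0.96 with 0 of 17 at an unadjusted p under 0.05, and -0.42 without enriched saline replicate 2. Ttr, the transthyretin of the plexus, was at 55.7, 7503 and 20.8 TPM in enriched saline, against 118, 81.7 and 61.6 TPM in standard saline mice. Neocortex and subiculum markers had 5 of 13 higher at an unadjusted p under 0.05 and a median of 0.35, which was 0.02 without standard saline replicate 2. Striatum markers had 3 of 11 higher at that level and a median of 0.32. The dopamine receptor gene Drd1 was at 12.1, 12 and 12.5 TPM in enriched saline, against 8.55, 6.43 and 7.42 TPM in standard saline mice. Thalamus and habenula markers had 0 of 11 higher and 1 lower, with a median of 0.10. Of 10 ependymal markers 8 had negative fold changes and 1 was lower at an unadjusted p under 0.05, with a median of -0.39, which was 0.03 without enriched saline replicate 3. The part of such tissue in the leading genes was not tested.

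**Figure D4:**
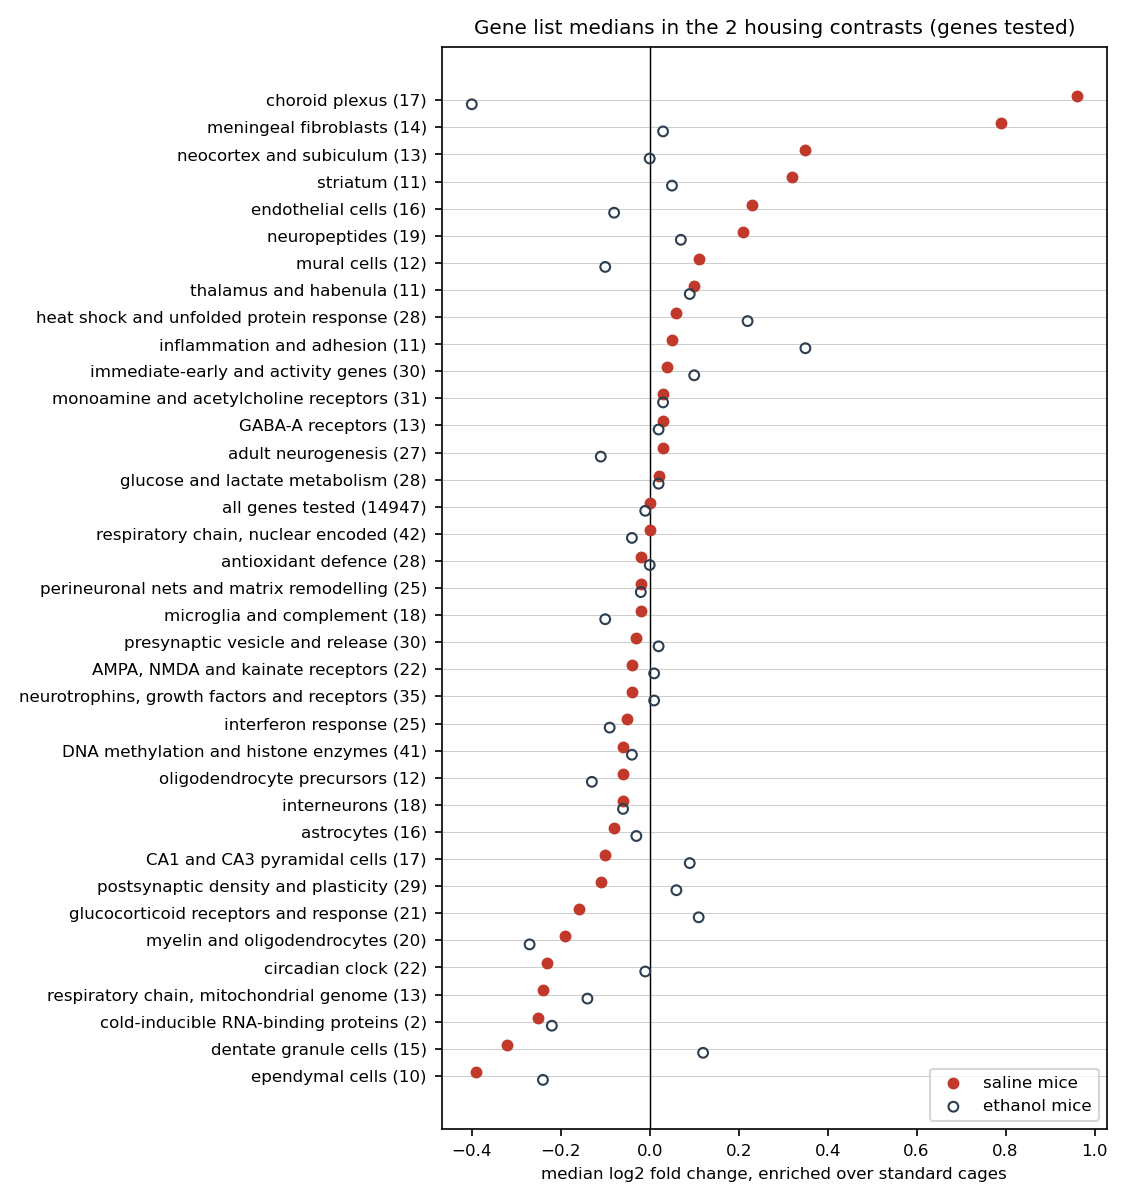
Median log2 fold change, enriched over standard cages, of 36 gene lists and of all genes tested, in saline mice (filled) and in ethanol mice (open), with the number of genes tested in brackets. In saline mice medians run from 0.96 for choroid plexus and 0.79 for meningeal fibroblasts to -0.32 for dentate granule cells and -0.39 for ependymal cells.

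The same housing contrast in ethanol mice gave 1 called gene of 14947 (0.00669%), and 435 higher (2.91%) and 398 lower (2.66%) at an unadjusted p under 0.05, 833 in all (5.57%). Its groups did not overlap for 908 genes on the higher (6.07%) and 893 on the lower side (5.97%). Across all genes tested the log2 fold changes of the 2 housing contrasts had a Pearson correlation of 0.06, where genes are not independent replicates and the contrasts share no library. Of the 12 leading higher genes of saline mice 9 had the same sign in ethanol mice, with a median of 0.05 there against 0.65 in saline mice. Of the 12 leading lower genes 5 had the same sign, with a median of 0.03 against -0.46. Since these genes were chosen for their fold change in saline mice, a smaller value in the other mice is no result on its own. The difference of the 2 contrasts, which holds the saline contrast within it, called 2 genes (0.0134%), neither of them among these 24, and 1107 genes (7.41%) had an unadjusted p under 0.05 for it, 596 with a positive (3.99%) and 511 with a negative difference (3.42%).

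Map7 came nearest to a call for that difference among the leading genes. In ethanol mice it was at 73.7, 79.3 and 77.6 TPM in enriched cages, against 64.3, 64.2 and 59.4 TPM in standard cages (log2 fold change 0.29; limma unadjusted p = 8.65e-04, adjusted p = 0.595), the other way round from saline mice. The groups did not overlap in either comparison. The difference was -0.66 (limma adjusted p = 0.0700). Ermp1 and Hist1h2bj also had opposite signs in the 2 contrasts, at -0.31 and -0.59 in saline mice and 0.14 and 0.28 in ethanol mice. Rbm3 had the same sign in both, with 144, 163 and 130 TPM in enriched ethanol, against 180, 179 and 202 TPM in standard ethanol mice (-0.36; limma unadjusted p = 0.00175, adjusted p = 0.765). Gfap was at 276, 251 and 242 TPM in enriched ethanol, against 252, 248 and 253 TPM in standard ethanol mice, so its low level was seen in the enriched saline libraries and not in the other 9.

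**Figure D5:**
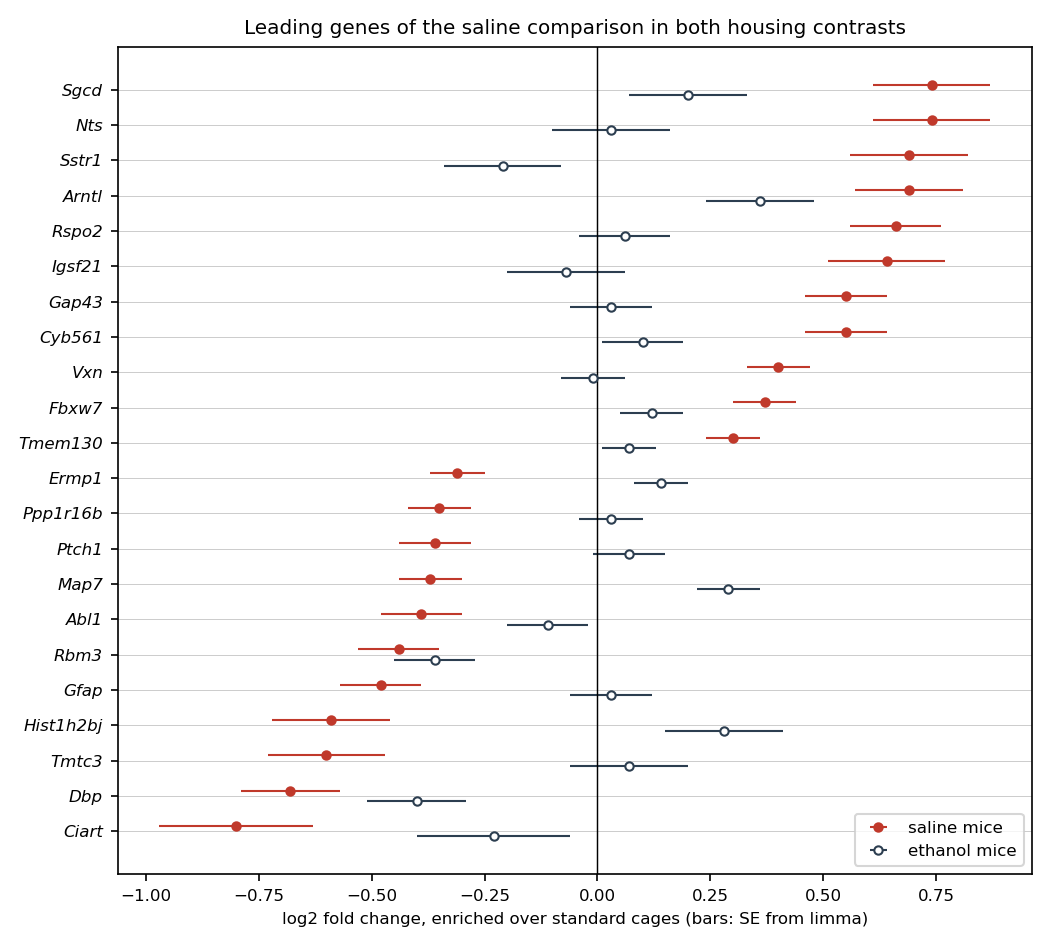
Log2 fold change, enriched over standard cages, with its SE from limma, for 22 leading genes that were not called (Rps27rt, listed at 0 in a whole group, is left out), in saline mice (filled) and in ethanol mice (open). Dbp, Rbm3 and Arntl have the same sign in both, at -0.68, -0.44 and 0.69 in saline mice and -0.40, -0.36 and 0.36 in ethanol mice, while Map7 is at -0.37 in saline mice and 0.29 in ethanol mice.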

How the data were processed

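RNA of 12 mouse hippocampi (4 groups of 3) was sequenced from stranded total RNA libraries after removal of ribosomal RNA, per the labels' protocols. The submitters' processing notes name CASAVA, kallisto, sleuth and the build mm10, without versions or roles. The deposited values are named TPM by the authors, but their sums per column, 973187 to 1024536, are unequal, which plain TPM never are. A factor per library must have been applied by the authors, and the values were treated as a deposited signal proportional to TPM. This differs from the plain TPM that the design had assumed, and the test is the same. TPM keeps no read counts, so depth is unknown and no counting interval is given.

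Each of the 12 columns of values bears the name of 1 sample, and 0 were left unused. Symbols, positions and biotypes of 35879 of 36119 identifiers came from GENCODE M21 (GRCm38). Values were analysed as log2(TPM + 0.5) for genes with a mean of at least 1, a scale on which low genes show less than their real change. With limma 3.58.1 (R 4.3.3), 4 group means were fitted to the 12 libraries, with a mean-variance trend (8 residual and 3.82 prior degrees of freedom). The 3 contrasts were enriched against standard cages in saline mice, the same in ethanol mice, and their difference. Tests were two-sided, adjusted by Benjamini-Hochberg over all genes tested at a threshold of 0.05. The code was tested on simulated data.

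The 36 gene lists, the members and the tests were chosen with earlier results of these data known, and lists are described by counts and medians without a set test. Genes named are the called genes, the 12 smallest p-values in each direction among named protein-coding genes, the 3 smallest in each list and fixed genes (among them Bdnf, Ntrk2, Fos, Arc, Egr1, Npas4, Nr4a1, Igf1, Vegfa, Dcx, Per1, Per2, Dbp, Rbm3, Cirbp, Ttr, Gfap and Mbp). Further members of the lists described in detail, and the called genes of the other contrasts, were chosen after their values were seen. Of the genes this rule names, 1 called gene is not reported here. Alternatives were other pseudocounts, filters and scalings, a replicate block, a fit of 6 libraries, no trend, library weights and leaving out libraries.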

Additional observations from a re-analysis of the deposited data

Results flagged for a closer look

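The housing contrast differed between saline and ethanol mice, by limma's test of the difference itself, for 2 genes. Gm44922, listed at 0 in 9 libraries and at 8.41 ± 0.0624 TPM in the 3 standard saline libraries (SD), had a difference of -4.16 on the log2 scale (limma adjusted p = 0.00263). ENSMUSG00000118641, unnamed in GENCODE M21, was listed at 0 in every library but those of standard ethanol, where it was at 10.4, 5.69 and 4.41 TPM, and had a difference of 3.79 (limma adjusted p = 0.0418). Neither gene was called for the difference at a pseudocount of 0.1.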

How the results depend on the processing

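For enriched against standard saline mice, 4 genes were called by limma. The count was 1 at a pseudocount of 1, 7 without a filter on low values, 1 with a mean of at least 5, 8 when the 6 libraries of the comparison were fitted alone, 2 with library weights and 10 with the replicates 2 of both saline groups left out. Leaving out any 1 saline library gave 1 to 20 genes, with the 20 (18 lower, 3 shared with the 4) found without standard saline replicate 2. Gm44922 kept its call in all of these but the filter at 5, which removes it. Enriched ethanol against standard ethanol called 1 gene, and 0 at a pseudocount of 0.1, 2 without a filter, 0 with a mean of at least 5, 4 with its 6 libraries alone and 1 to 21 with any 1 library left out. The difference of the contrasts called 2, and 0 at a pseudocount of 0.1, 4 without a filter, 0 with a mean of at least 5, 0 without the replicates 2 of both saline groups and 1 to 12 with any 1 library left out. The fit with the replicate number as a replicate block called 3 genes (0 higher, 3 lower, 2 shared with the 4) and 1400 at an unadjusted p under 0.05. Deviations from the group means correlated at -0.05, 0.03 and 0.06 between saline libraries with the same number. Such values cannot show whether these libraries share a litter or a batch, which the labels do not state. Of the genes named, 7 turned sign under some alternative. With any 1 saline library left out, log2 fold changes ran from -1.29 to 2.94 for Ttr and from -0.19 to 1.95 for Cldn2 (lowest without enriched saline replicate 2), from -0.15 to 1.16 for Fos, from -0.28 to 0.45 for Nr4a1 and from -0.34 to 0.30 for Egr1 (lowest without standard saline replicate 2), from -0.57 to 0.20 for Arc, and up to 0.08 for Vegfa. With the replicates 2 of both saline groups left out, Ttr was at -1.31, Cldn2 at -0.26, Nr4a1 at -0.15 and Egr1 at -0.14, and Egr1 was at -0.03 with library weights. The cause of these changes was not tested. The depth behind each value is unknown.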

Other observations

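Of 28 heat shock and unfolded protein genes 5 were higher and 0 lower in enriched than standard saline at an unadjusted p under 0.05. That was 17.9%, against 10.0% of all genes, and the median log2 fold change was 0.06 with 10 negative ones. Without enriched saline replicate 2 there was 1 higher, with a median of -0.02. In ethanol mice 12 were higher and the median was 0.22. Calr, the endoplasmic reticulum chaperone calreticulin, was at 386, 469 and 388 TPM in enriched saline, against 351, 346 and 280 TPM in standard saline mice, and Hsp90b1, a chaperone of the same compartment, at 312, 382 and 291 TPM in enriched saline, against 290, 260 and 242 TPM in standard saline mice. The groups did not overlap for either gene, which their choice by p largely fixes, and neither was called (limma adjusted p = 0.378 and 0.380). Over all genes tested the groups were without overlap for 14.0%.

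Cells of the vessel wall gave mixed values. Of 16 endothelial markers 3 were higher and 2 lower at an unadjusted p under 0.05 (31.2%, against 10.0% of all genes). Their median was 0.23. The tight junction gene Cldn5 was at 35.8, 39.6 and 47.0 TPM in enriched saline, against 28.9, 24.7 and 23.5 TPM in standard saline mice, while Mfsd2a, the lipid carrier of the blood-brain barrier, was at 12.5, 9.92 and 11.7 TPM in enriched saline, against 14.8, 16.1 and 14.6 TPM in standard saline mice. Each gene had groups that did not overlap, which their choice by p largely fixes, and the directions were opposite. The glucose carrier Slc2a1 was also lower in each enriched library, with 24.6, 29.7 and 30.4 TPM in enriched saline, against 40.4, 34.2 and 36.7 TPM in standard saline mice.

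The 42 nuclear genes of the respiratory chain had log2 fold changes between -0.09 and 0.11 with 0 at an unadjusted p under 0.05. Of 13 respiratory chain genes of the mitochondrial genome 12 had negative ones, with a median of -0.24 and 0 at that level. Their mean was highest in standard saline replicate 3, and the median was -0.10 when it was left out. Of 29 postsynaptic density and plasticity genes 1 was higher and 2 lower at that level (10.3%, against 10.0% of all genes), 26 had negative fold changes, and the median was -0.11. Their mean in standard saline replicate 1 was below that in every enriched saline library, and without that replicate 11 were lower and the median was -0.20. Camk2a, the kinase of synaptic plasticity, was at 538, 541 and 515 TPM in enriched saline, against 560, 761 and 951 TPM in standard saline mice (log2 fold change -0.48, and -0.30 without standard saline replicate 3; limma adjusted p = 0.422). Of 11 inflammation and adhesion genes tested 1 was higher and 2 lower at that level (27.3%), with a median of 0.05. Cxcl10, a chemokine, was at 0.620, 0.762 and 0.157 TPM in enriched saline, against 3.54, 1.67 and 1.63 TPM in standard saline mice (limma adjusted p = 0.331). Socs3, an inhibitor of cytokine signalling, was at 2.35, 2.08 and 2.64 TPM in enriched saline, against 1.11, 0.657 and 0.971 TPM in standard saline mice (limma adjusted p = 0.266). Both genes had low levels, near the pseudocount of 0.5.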
